A study of Homo sapiens with 2 samples.

Results

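Integrins, laminins and the proteins that link them were followed in A2058 cells, an established human melanoma cell line. Genes were chosen by name, with earlier results of these data known. They were integrin alpha and beta subunits, laminin alpha, beta and gamma chains, and the basement membrane linkers NID1 and NID2. The laminin receptor DAG1 and the cytoplasmic linkers ILK, PARVA, TLN1, FERMT1 and FERMT2 were also included. The array annotation names 67 probes for 43 of these genes, of 30113 probes for 20046 genes in all, and 35 of the 43 were detected on at least 1 array. The annotation used here gives no probe to DAG1 or LAMA3, which were not analysed here. The drug-resistant cells, called drug-selected here, are A2058 cells selected with carmustine, an agent that alkylates and crosslinks DNA. The labels give 100 uM over 6 months, while the study's methods describe repeated rounds of drug, withdrawal and regrowth in which 100 uM was the final concentration. The parental cells are the A2058 cells from which they were derived, kept in culture alongside without that selection. The study's methods give one serum-containing medium for A2058 cells. Those methods also define the array fold as suspended over adherent cells. The labels do not say whether the cultures differed in attachment as well as in selection, and its part was not tested. Total RNA of each population was hybridised to 1 Illumina bead array.

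Integrins are receptors of the plasma membrane made of 1 alpha and 1 beta subunit, and the pair decides which matrix protein is bound. Laminins are trimers of an alpha, a beta and a gamma chain that build the sheet of the basement membrane, where nidogens tie them to collagen IV. Inside the cell, talin and kindlins bind the tails of beta subunits and switch integrins on, and ILK with parvin connects them to actin. In melanoma these genes are known for their part in crossing the basement membrane and in attachment at distant sites.

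With 1 array in each group there is no replicate, so no difference has an error across cultures, no test was possible, and precision is limited by having a single pair of arrays. Signals below are the deposited probe intensities, and log2 values are the same signals after background correction and quantile normalization, which gives both arrays the same distribution. A probe was called detected at a detection p-value under 0.05 on at least 1 array, and each gene is represented by whichever detected probe had the highest mean. A gene was called higher past 2-fold in drug-selected cells and lower under 0.5-fold, as the study's methods did. Where a gene was not well above background on 1 array, its fold is given as "at least". The dim signal is then replaced by the lowest one among detected probes on that array, unless its own is higher. Counts use the values without such bounds. As a scale for probe error, 2892 genes had 2 or more probes detected on both arrays, and the log2 differences of probes of 1 gene had an SD of 0.305. That spread does not include the variation between cultures. Levels are compared only between the arrays, for 1 probe or for a sum over a marker list, never between genes.

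The median signal was 63.1 on the drug-selected array and 52.5 on the parental array, and 45.6% of probes were detected on the drug-selected array and 42.5% on the parental array. The cell type was checked against melanocyte lineage markers. Of 7 listed, 5 were detected, and 4 of these were past 2-fold lower in drug-selected cells. The summed normalized signal of the 5 was 3998 in drug-selected cells and 43135 in parental cells. Such a sum, here and for the other marker lists below, mostly follows its brightest genes. The enzyme of melanin synthesis TYR had a signal of 69.0 in drug-selected cells and 7821 in parental cells (303-fold lower), and at a detection p-value of 0.0208 it was close to background in drug-selected cells. The melanosome antigens were also lower, MLANA with 150.5 in drug-selected cells and 2382 in parental cells (27.7-fold), and PMEL with 2233 in drug-selected cells and 23447 in parental cells (13.2-fold). MITF, the lineage's transcription factor, was 6.45-fold lower, past 2-fold at 1 of its 2 detected probes. The neural crest factor SOX10, at 1684 in drug-selected cells and 2356 in parental cells, was the one detected marker within 2-fold, and S100B was detected on neither array. In RNA from a bulk culture, fewer cells of a type and less RNA per cell cannot be told apart.

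Of the 35 detected genes, 8 were higher (22.9%) and 3 were lower (8.57%) in drug-selected cells, and 24 lay within 2-fold. The same shares over the 12832 detected genes of the array were 7.12% higher and 5.84% lower. The median log2 difference of the 35 was 0.10, also with the bounds, with a range of -3.23 to 2.70, and the median over all detected genes was 0.00. The higher genes were the laminin chains LAMB3, LAMA5 and LAMC3, the integrin subunits ITGA1, ITGA3 and ITGB4, the nidogen NID1 and the kindlin FERMT1. The lower genes were ITGA9, ITGB8 and the laminin chain LAMA1. The split moved with the scaling. Without normalization between the arrays 11 of the 35 were higher and 2 were lower, beside 14.1% higher and 2.66% lower over all detected genes in that setting, where the median of all genes was 0.37. Of the 35 genes, 31 were detected on both arrays, 3 (FERMT1, ITGA11 and ITGB4) on the drug-selected array only, and 1 (ITGAM) on the parental array only. FERMT1 and ITGB4, counted as higher, thus entered through the array where they were high. With detection required on both arrays, 6 of 31 were higher and 3 were lower. The shares over all genes under that filter were not counted. The remaining 8 of the 43, namely ITGA2B, ITGA8, ITGAD, ITGAL, ITGAX, ITGB6, LAMA2 and LAMB4, were not detected on either array.

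**Figure D1:**
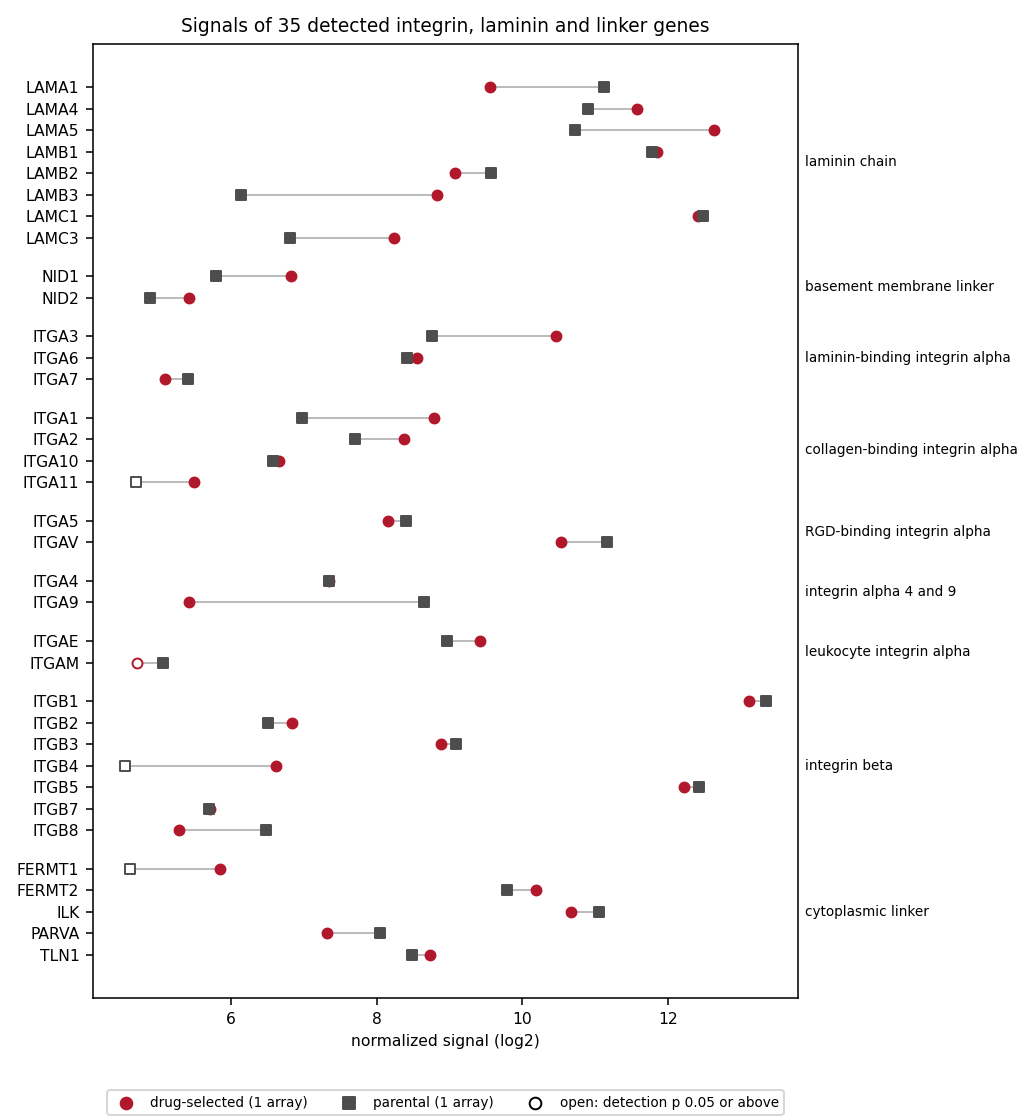
Normalized signal (log2, horizontal axis) of the 35 detected genes, 1 point per array, with drug-selected cells as circles and parental cells as squares, joined by a line for each gene and grouped by role. Open symbols mark a detection p-value of 0.05 or above, and the longest lines are those of ITGA9, at 5.42 in drug-selected cells and 8.65 in parental cells, and LAMB3, at 8.83 in drug-selected cells and 6.13 in parental cells.

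Among the laminins, 8 of 10 chains were detected. Of these, 3 were higher and 1 was lower, and the median of the 8 log2 differences was 0.36. LAMB3, the beta chain of the laminin that anchors epithelia, had a signal of 556 in drug-selected cells and 88.9 in parental cells. Its log2 signal of 8.83 in drug-selected cells, against 6.13 in parental cells, made it 6.50-fold higher. This was the widest upward difference of the 35 genes, and it rests on 1 of 3 probes, because the other probes of LAMB3 were not detected on either array. LAMA5, the alpha chain of many adult basement membranes, had a signal of 7169.8 in drug-selected cells and 1475 in parental cells, which was 3.76-fold higher after normalization. LAMC3, a gamma chain of restricted distribution, had a signal of 384 in drug-selected cells and 125 in parental cells and was 2.70-fold higher. Each of the 3 higher chains stood above background on both arrays.

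LAMA1, the alpha chain of embryonic basement membranes, was the laminin that went the other way. Its signal was 898 in drug-selected cells and 1951 in parental cells, a log2 difference of -1.57 that made it 2.97-fold lower. The second LAMA1 probe read 204 in drug-selected cells and 443 in parental cells, with a difference of -1.73, so both probes placed the gene past 2-fold. The chains LAMB1 and LAMC1, which join most alpha chains in common laminin trimers, lay close to 0. LAMC1 had a signal of 6339 in drug-selected cells and 5019 in parental cells, with a log2 difference of -0.07, and LAMB1 had differences of 0.06 and -0.01 at its 2 probes. LAMA4, an alpha chain of vessel walls, stayed within 2-fold at 0.66 and 0.83 for its 2 probes, and LAMB2 at -0.50. The chains past 2-fold were thus LAMA1, LAMA5, LAMB3 and LAMC3, while LAMB1 and LAMC1 were read at similar levels on both arrays.

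To show the sequence ahead of the genes past 2-fold, 250 bases before the annotated start were taken from RefSeq (GRCh38.p14). Both strands were searched for TGANTCA and for GGGCGG, the core of the GC box. TGANTCA covers the AP-1 site but allows any base in the middle, so it is wider than that site. By their letters, a match of the first cannot overlap one of the second. Of the 43 genes, 30 were matched, with 37 windows, since some genes have several starts. TGANTCA was in 1 of the 37 windows, and 6.57% of the 35116 windows in the RefSeq table held it. GGGCGG was in 21 of the 37, and 42.6% of all windows held it. The 5 genes past 2-fold with a window were ITGA1, ITGB8, LAMA5, LAMB3 and NID1. Shown here are the LAMB3 window with the only TGANTCA match (chr1:209651375-209651624, minus strand), the window of LAMA5 (chr20:62367313-62367562, minus strand), of ITGA1 (chr5:52787666-52787915, plus strand) and of ITGB8 (chr7:20330650-20330899, plus strand), each 5′ to 3′, with the matches in capitals.
LAMB3: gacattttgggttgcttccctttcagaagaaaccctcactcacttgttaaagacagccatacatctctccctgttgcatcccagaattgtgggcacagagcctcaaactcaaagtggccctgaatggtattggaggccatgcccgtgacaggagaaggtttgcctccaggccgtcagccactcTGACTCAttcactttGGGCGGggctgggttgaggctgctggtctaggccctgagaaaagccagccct
LAMA5: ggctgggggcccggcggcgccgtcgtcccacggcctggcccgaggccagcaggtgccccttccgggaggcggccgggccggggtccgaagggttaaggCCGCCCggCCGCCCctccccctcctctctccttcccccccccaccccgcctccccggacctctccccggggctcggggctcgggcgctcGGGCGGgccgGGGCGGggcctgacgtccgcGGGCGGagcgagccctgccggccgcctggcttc
ITGA1: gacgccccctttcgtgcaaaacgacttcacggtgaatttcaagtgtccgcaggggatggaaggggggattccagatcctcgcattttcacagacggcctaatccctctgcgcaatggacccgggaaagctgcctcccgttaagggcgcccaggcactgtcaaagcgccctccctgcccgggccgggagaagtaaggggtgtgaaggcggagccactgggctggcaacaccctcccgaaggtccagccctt
ITGB8: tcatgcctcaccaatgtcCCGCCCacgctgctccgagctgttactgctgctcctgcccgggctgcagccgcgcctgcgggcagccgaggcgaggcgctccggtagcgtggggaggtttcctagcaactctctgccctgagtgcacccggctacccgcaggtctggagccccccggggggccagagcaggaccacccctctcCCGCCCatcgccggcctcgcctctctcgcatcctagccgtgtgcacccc
LAMB3 has 3 windows, and its TGANTCA match starts 67 bases before the start in the window shown. LAMA5 holds 5 GGGCGG matches, ITGB8, which was lower, holds 2, and ITGA1, which was higher, holds neither motif. A match describes the letters only and does not show that a factor bound there.

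Of the nidogens, NID1 was higher and NID2 was within 2-fold. NID1, which links the laminin sheet to collagen IV, had a signal of 167 in drug-selected cells and 76.9 in parental cells and was 2.05-fold higher, close to the threshold. Its call was lost with a normexp offset of 50, without normexp and with the authors' normalized signal, where the log2 difference was 0.72, 0.73 and 0.74. NID2, its relative, read 85.3 in drug-selected cells and 56.4 in parental cells, with a log2 difference of 0.53 and a parental detection p-value of 0.0494, just under the detection threshold.

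Of the 18 integrin alpha subunits, 13 were detected, 2 were higher and 1 was lower, and their median log2 difference was 0.10. Among those that bind laminin, ITGA3 was higher while ITGA6 and ITGA7 were not. ITGA3 had a signal of 1663 in drug-selected cells and 401 in parental cells, a difference of 1.71 on the log2 scale, or 3.27-fold. The other ITGA3 probe, detected on the drug-selected array alone, read 67.6 in drug-selected cells and 50.1 in parental cells, a log2 difference of 0.25. That probe was at the edge of detection in drug-selected cells (detection p-value 0.0325) and did not show the 3.27-fold difference. ITGA6, which pairs with ITGB1 or ITGB4, read 464 in drug-selected cells and 319.5 in parental cells, with log2 differences of 0.14 and 0.69 at 2 probes. ITGA7, a laminin receptor of muscle, read 74.5 in drug-selected cells and 66.6 in parental cells, with a difference of -0.31.

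Of the 4 detected subunits that bind collagen, ITGA1, a receptor for collagen IV of the basement membrane, was the one past 2-fold. Its signal was 542 in drug-selected cells and 136 in parental cells, which was 3.53-fold higher, with a log2 difference between 1.58 and 2.24 over the 9 alternative settings tried for it. ITGA2, the receptor that prefers fibrillar collagen, had a signal of 418 in drug-selected cells and 206 in parental cells, with a log2 difference of 0.68 within 2-fold. ITGA10 differed by 0.10. ITGA11 was detected in drug-selected cells only, with a signal of 87.8 in drug-selected cells and 52.3 in parental cells, at least 1.51-fold higher.

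ITGA9 had the widest difference of the 35 genes. This subunit pairs with ITGB1 and binds tenascin and VCAM1. Its signal was 85.4 in drug-selected cells and 373 in parental cells, and it was 9.36-fold lower, on 1 probe that was detected on both arrays. ITGA4, the subunit most like it, which binds fibronectin and VCAM1, read 224 in drug-selected cells and 169 in parental cells, with a log2 difference of -0.01. Both subunits were detected on both arrays, and only ITGA9 was past 2-fold.

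The receptors for the RGD motif of fibronectin and vitronectin were within 2-fold. ITGAV had a signal of 1726 in drug-selected cells and 2004 in parental cells, a log2 difference of -0.64, and ITGA5 had 363 in drug-selected cells and 317 in parental cells, a difference of -0.25. The platelet subunit ITGA2B and the subunit ITGA8 were not detected. Among the leukocyte subunits, ITGAE, which with ITGB7 binds E-cadherin, read 821 in drug-selected cells and 462 in parental cells, a difference of 0.45. ITGAM read 63.3 in drug-selected cells and 59.6 in parental cells, at least 1.20-fold lower. It was detected on the parental array only, with a detection p-value of 0.0247.

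**Figure D2:**
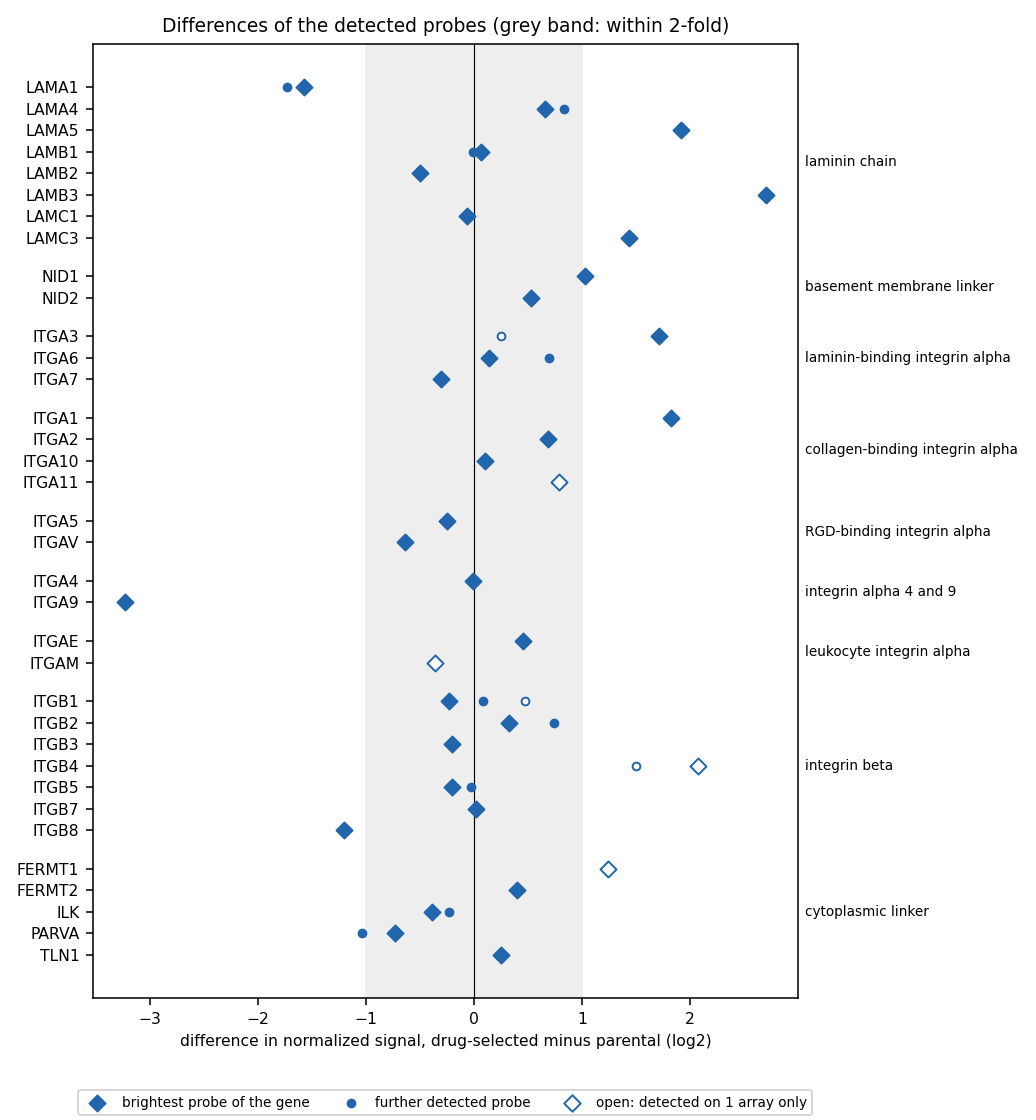
Log2 difference of normalized signal, drug-selected minus parental (horizontal axis), for each detected probe of the 35 genes, with diamonds for the probe that stands for the gene, small circles for its further probes, open symbols for detection on 1 array, and grey for the range within 2-fold. ITGA9 lies lowest at -3.23 and LAMB3 highest at 2.70, and both detected LAMA1 probes lie below the grey range.

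Of the 8 integrin beta subunits, 7 were detected, 1 was higher and 1 was lower, and their median log2 difference was -0.20. ITGB4, which pairs with ITGA6 and builds hemidesmosomes, had a signal of 149.6 in drug-selected cells, against 48.5 in parental cells, where it was not well above background (detection p-value 0.288). It was at least 3.30-fold higher. A second detected ITGB4 probe read 102 in drug-selected cells and 39.8 in parental cells, or at least 1.91-fold higher, while the other 2 of its 4 probes were detected on neither array. ITGB8, which pairs with ITGAV and releases active TGF-beta, had a signal of 80.7 in drug-selected cells and 105 in parental cells and was 2.29-fold lower. That call was sensitive to the processing. In 4 of 9 alternative settings ITGB8 was within 2-fold, at a log2 difference of -0.76 with a normexp offset of 50 or without normexp, -0.77 with the authors' normalized signal and -0.81 without normalization between the arrays.

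The remaining beta subunits were within 2-fold. ITGB1, the partner of most alpha subunits named here, had a signal of 10112 in drug-selected cells and 8809 in parental cells, with log2 differences of -0.23 and 0.08 at its 2 probes detected on both arrays. A further ITGB1 probe, detected on the drug-selected array alone, read 67.4 in drug-selected cells, against 42.5 in parental cells. ITGB5 had 3 detected probes, with log2 differences from -0.20 to -0.03, and ITGB3, the partner of ITGAV in the vitronectin receptor, differed by -0.20. ITGB2, the leukocyte beta subunit, read 167 in drug-selected cells and 107 in parental cells, with differences of 0.32 and 0.74 at 2 probes, and ITGB7 differed by 0.02.

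The 5 cytoplasmic linkers were all detected, and only FERMT1 passed 2-fold by the probe that stands for the gene. FERMT1, the kindlin of epithelia, which binds beta tails, had a signal of 104 in drug-selected cells and 50.4 in parental cells (detection p-value 0.192). It counted as higher, with a log2 difference of 1.24, but its bound was at least 1.95-fold, under the threshold. FERMT2, the kindlin of most other tissues, had a signal of 1366 in drug-selected cells and 791 in parental cells, a difference of 0.40. TLN1, which encodes talin, differed by 0.25. ILK, a scaffold between beta tails and actin, had 1907 in drug-selected cells and 1865 in parental cells, with log2 differences of -0.39 and -0.23 at 2 probes. PARVA, its actin-binding partner, was on the edge of the threshold, with a log2 difference of -0.73 at its brighter probe (221 in drug-selected cells, 255 in parental cells) and of -1.04 at the dimmer one (75.5 in drug-selected cells, 90.3 in parental cells).

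Of the 35 genes, 9 had 2 or more probes on both arrays, with a median range of 0.17 in log2 difference and the widest range, 0.55, in ITGA6. In LAMB1 and ITGB1 the probes had opposite signs close to 0. Of the 11 genes past 2-fold, LAMA1 had 2 detected probes on both arrays, ITGB4 had 2 detected in drug-selected cells only, and the others rested on 1 probe detected on both arrays or, for FERMT1, on the drug-selected array.

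The 11 genes kept their direction in all of their 97 alternative values, of which 84 were past 2-fold. Of these genes, 8 stayed past 2-fold in all of their alternative values, namely LAMB3, LAMA5, LAMC3, ITGA1, ITGA3, ITGB4, ITGA9 and LAMA1. FERMT1, ITGB8 and NID1 did not. The median over a gene's probes was not among these values. With that median, 7 of the 35 genes were higher, and the detected ITGA3 probes differed by 1.71 and 0.25. The share over all genes with that median was not counted. FERMT1 enters these values by its bound, which was already within 2-fold in the setting of the report (0.96) and in 6 of 8 alternatives. The sizes moved by different amounts. ITGB4 ranged from 1.05 to 2.58 on the log2 scale, with its bound, and ITGA9 from -3.84 to -2.50, each between normexp offsets of 50 and 0, while LAMA5 ranged from 1.87 to 2.30.

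**Figure D3:**
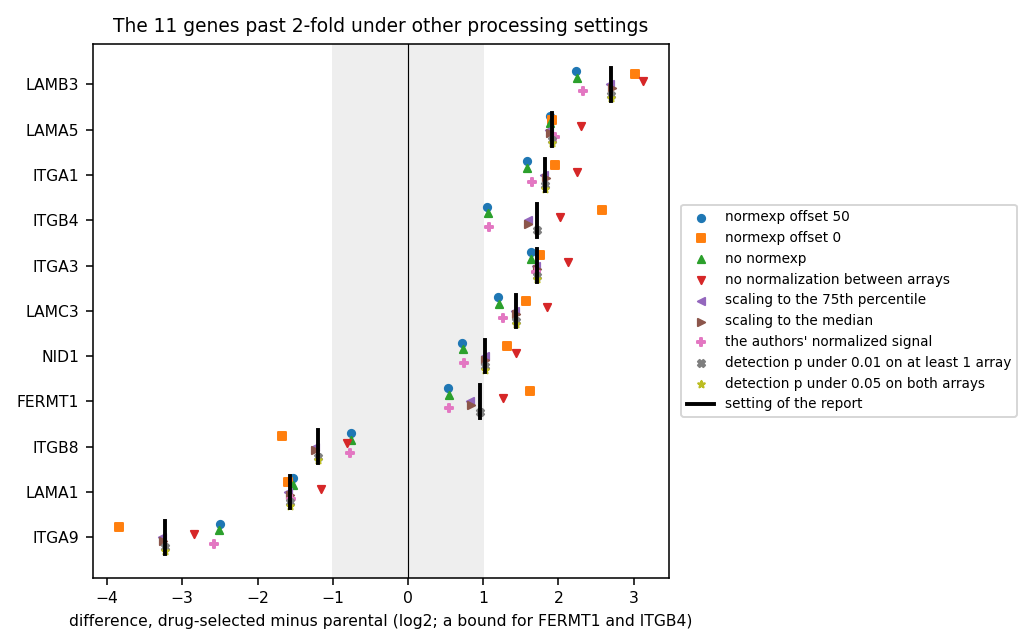
Log2 difference, drug-selected minus parental (horizontal axis), of the 11 genes past 2-fold under each processing setting (symbols) and the setting of the report (bars), with a bound for FERMT1 and ITGB4 and grey for the range within 2-fold. FERMT1, ITGB8 and NID1 enter the grey range, and the other 8 stay outside it. The median over a gene's probes is not shown.

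The lists of partners were set beside the 35 genes by counts and median, and nothing particular to a list is drawn from them. Their counts, like those of the marker lists, include genes detected on 1 array only. A gene given there as at least some fold higher was detected on the drug-selected array only, so it entered through the array where it was high. Among the adaptors and activators of integrins, 19 of 29 were detected, and the median of their log2 differences was 0.18. None was lower and 3 were higher. These were FERMT3, TNS3 and ZYX. FERMT3, the kindlin of blood cells, read 261 in drug-selected cells and 76.4 in parental cells (3.54-fold higher, past 2-fold at 1 of its 2 probes). TNS3 (2.10-fold) and ZYX (2.09-fold, past 2-fold at 1 of its 2 probes) are both actin-linked adhesion proteins. Of 11 detected focal adhesion kinases none passed 2-fold, with a median of -0.03.

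Of the ligands of integrins outside the laminins, 22 of 34 were detected, 9 were higher and 0 were lower, and the median was 0.46. Of the 22, 5 were detected on 1 array only, among them the higher genes ICAM2, ANGPTL4 and VCAM1. The list mixes matrix proteins with membrane proteins, among them ICAM2 and VCAM1, which both counted as higher. THBS1, a thrombospondin, had a signal of 2517 in drug-selected cells and 333 in parental cells and was 6.13-fold higher. ICAM2, the counter-receptor of leukocyte integrins, read 819.7 in drug-selected cells and 38.8 in parental cells, which was at least 23.1-fold higher. ANGPTL4, which the study had picked on these arrays, so that it is not independent of that choice, was at least 7.71-fold higher. It passed 2-fold at 1 of its 2 detected probes. VCAM1, a ligand of ITGA4 and ITGA9, was at least 1.41-fold higher, at 84.1 in drug-selected cells and 40.3 in parental cells. Without its bound it passed 2-fold at 1 of its 2 detected probes.

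Of the other basement membrane components, 22 of 28 were detected, 10 were higher and 1 was lower, and the median was 0.53. Of the 22, 6 were detected on 1 array only. Among the higher genes, COL4A6, EGFLAM, SMOC1 and TINAGL1 were detected on the drug-selected array only. EGFLAM, a ligand of dystroglycan, read 689.5 in drug-selected cells and 51.2 in parental cells, a fold of at least 19.3. The collagen IV chain COL4A6 was at least 17.6-fold higher, and EFEMP1, a fibulin, was 16.9-fold higher. COL15A1, a basement membrane collagen, was 5.07-fold lower, at 95.5 in drug-selected cells and 250.2 in parental cells. The 4 detected chains of collagen IV, which nidogens and ITGA1 bind, did not all go one way. COL4A5 was 6.15-fold higher, like COL4A6, while COL4A1 and COL4A2 were within 2-fold, at log2 differences of 0.18 and -0.92.

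Of 7 detected laminin receptors outside the integrins, 1 was lower, the lectin LGALS3 (3.84-fold), and the median was 0.16. Of 8 detected members of the dystrophin complex, which joins dystroglycan to actin, 1 was higher, SSPN (at least 1.64-fold), and of 13 detected enzymes that glycosylate dystroglycan 0 passed 2-fold. Of the 6 hemidesmosome components, partners of ITGB4, 3 were detected and 0 passed 2-fold, and the keratins KRT5 and KRT14 were not detected. Of 6 detected tetraspanins, TSPAN8 was higher, at 370.2 in drug-selected cells and 57.5 in parental cells (9.37-fold). Among 8 detected other membrane proteins that associate with integrins, 4 were higher and 2 were lower. CAV1 (4.53-fold), THY1 (at least 2.58-fold) and CAV2 (2.07-fold, past 2-fold at 1 of its 3 detected probes) were higher. SIRPA (5.65-fold) and SLC3A2 (3.08-fold), the heavy chain of CD98, were lower.

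**Figure D4:**
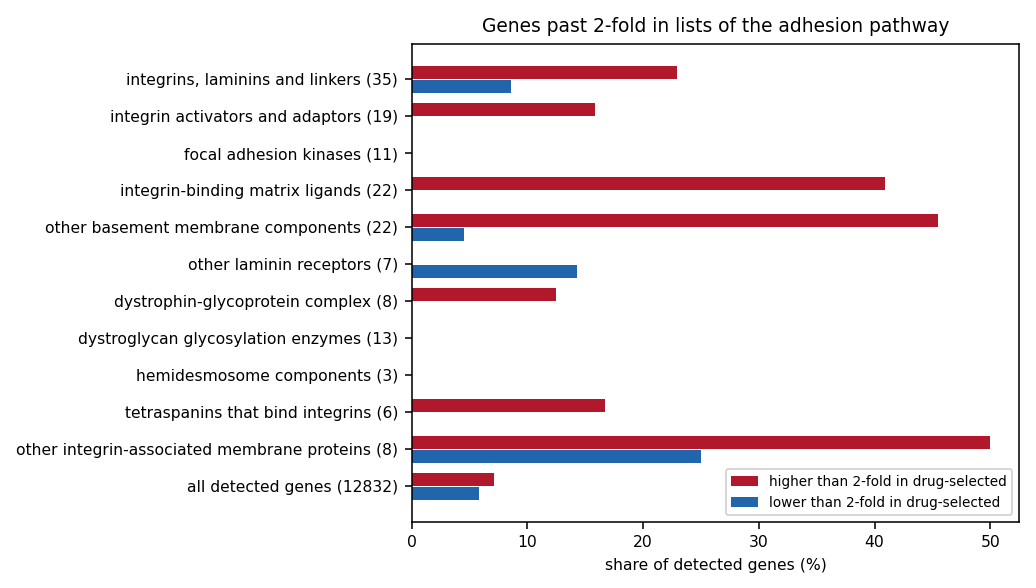
Share of detected genes (%, horizontal axis) higher (upper bar) or lower (lower bar) than 2-fold in drug-selected cells, for the integrins, laminins and linkers, for 10 lists of partners and for all detected genes, with the number of detected genes in brackets. The integrins, laminins and linkers stand at 22.9% higher and 8.57% lower, and all detected genes at 7.12% and 5.84%. Genes detected on 1 array only are counted, 4 of the 35 and 1928 of the 12832.

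Markers of other cell types were read for the cells that these integrins and laminins also mark. Of 6 keratinocyte and epithelial markers, 3 were detected, each on 1 array only, and 1, KRT8, was higher (at least 6.95-fold). The summed normalized signal of the 3 was 264 in drug-selected cells and 80.5 in parental cells, while CDH1, KRT5 and KRT14 were not detected. These values stand beside LAMB3, ITGB4 and FERMT1, which were higher, and ITGA6, the partner of ITGB4, which was within 2-fold. Of 6 leukocyte markers, 3 were detected and 2 were higher, CD14 (10.4-fold) and LYZ (at least 1.90-fold, past 2-fold without its bound at 1 of its 2 detected probes). SPI1 was within 2-fold, at a log2 difference of 0.19. The sum of the 3 was 603 in drug-selected cells and 102 in parental cells, while PTPRC and CD3E were not detected. These markers stand beside FERMT3, which was higher, and the leukocyte integrin subunits, of which none passed 2-fold. ITGAE and ITGB2 differed by 0.45 and 0.32 and ITGB7 by 0.02. ITGAM was at least 1.20-fold lower, and ITGAD, ITGAL and ITGAX were not detected. Of 6 endothelial markers, 3 were detected and 2 were higher, TEK (at least 5.74-fold) and PECAM1 (2.41-fold), with a sum of 282 in drug-selected cells and 100.3 in parental cells, while CDH5, CLDN5 and KDR were not detected. Of 6 fibroblast markers, 5 were detected, 2 were higher (PDGFRB, at least 6.65-fold, and FAP, 5.50-fold) and 2 were lower (DCN, 8.32-fold, and LUM, 3.06-fold), with a sum of 1655 in drug-selected cells and 3647 in parental cells. Of 4 platelet markers, 0 were detected. The part of these markers in the differences of integrins and laminins was not tested.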

How the data were processed

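RNA of drug-selected and of parental A2058 cells was measured on 1 Illumina bead array each, 2 arrays of 47323 probes. The authors deposited the average probe intensity on a linear scale, before normalization, and a detection p-value for each probe, computed by the scanner software against negative control beads of the same array. The authors also deposited a table of normalized intensities, with medians of 58.1 on both arrays, which ranked probes as the first table did and whose method the sources used here do not name. Conditions follow the sample labels. All folds are drug-selected over parental, because the methods of the study describe theirs in terms of suspended and adherent cells, names that no label carries.

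Intensities were background-corrected with limma 3.58.1 in R 4.3.3 (normexp from the detection p-values, offset 16) and quantile normalized before log2 was taken. The offset bears most on dim probes, and the choice of normalization on how many genes come out higher or lower. Symbols came from the platform annotation, which gives 1 symbol to 30113 probes and several to 8, which were not named, and 30074 probes matched RefSeq by gene identifier. Promoter windows came from RefSeq, GRCh38.p14.

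Members, partner lists and marker lists were chosen with earlier results of these data known. Every member with a named probe is accounted for. Of each other list the 3 widest differences past 2-fold in each direction are named. VCAM1, MITF, SOX10, SPI1, SMOC1, TINAGL1, the other collagen IV chains and genes named as not detected fall outside this rule. They were named after their values were seen. The alternatives were offsets of 50 and 0, leaving out normexp or the normalization between arrays, scaling by the median or the 75th percentile, the authors' normalized intensities, other detection filters, 1.5-fold and 3-fold thresholds and the median over a gene's probes. The steps were tested on simulated data. Counts and figures were made in Python 3.11.15 (pandas 2.3.3, numpy 2.4.6, matplotlib 3.10.9).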

Additional observations from a re-analysis of the deposited data

How the results depend on the processing

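With no normalization between the arrays the median log2 difference of the integrin, laminin and linker genes was 0.52 in place of 0.10, while that of all detected genes was 0.37, so the difference between both medians was 0.15. At a threshold of 1.5-fold 11 genes were higher in place of 8 and 5 were lower in place of 3, beside 15.4% and 15.9% of all detected genes. At 3-fold 5 were higher and 1 was lower, beside 3.54% and 1.76%. Counts of higher genes were 6 to 11 and of lower genes 2 to 3 over the other settings tried. Except without normalization between the arrays, the shares over all genes in those settings were not counted, so these counts have no background beside them. The 11 genes past 2-fold kept their sign in all 97 alternative values. ITGB8 came within 2-fold in 4 settings and NID1 in 3, and the cause was not tested. The FERMT1 bound was within 2-fold in 6 settings, and was so already in the setting of the report (0.96). No paired analysis was possible because each group has 1 array, and the single array per group leaves the variation between cultures unmeasured.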
